A study of Mus musculus with 5 samples.

Results

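The genes described are those whose RNA level set mouse embryonic fibroblasts (MEFs) apart from both pluripotent lines of the study in the same direction. RNA-seq was done on 1 library each of MEFs, iPSCs, and untreated V6.5 cells, an embryonic stem cell line of the mouse. V6.5 cells with a non-targeting shRNA (NTC) or with an shRNA against Gldc (shGldc) gave 2 more libraries, which were processed into a table of their own, and V6.5 without either name stands for the untreated cells. The deposited values are FPKM, which counts fragments per kilobase of a transcript and per 1000000 fragments mapped. Of 24421 genes, 13298 had an FPKM of at least 1 in MEFs, V6.5 cells, or iPSCs. The ratios of MEFs over V6.5 cells and over iPSCs, each taken on the log2(FPKM + 0.1) scale, had the same sign for 11639 of these 13298 genes (87.5%), and these 11639 genes are the ones described.

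The MEFs came from mid-gestation CF-1 mouse embryos and were used at early passage. They were grown in DMEM with 10% FBS and no LIF. V6.5 is 1 line of mixed C57BL/6 and 129 background, and the iPSCs are 1 reprogrammed line. Per the labels both pluripotent lines were grown without feeder cells, on gelatin, in DMEM with 15% KnockOut Serum Replacement, 1% FBS, and 1000 U/ml LIF, the cytokine that holds mouse stem cells undifferentiated. The study's methods also describe a culture of such cells on feeder cells, which the labels of these libraries do not name. Cell type, strain, and medium therefore cannot be told apart. With 1 library per condition, no spread between replicates exists and no p-value is given. The depth, estimated from the step between low values, was 24600000 fragments in MEFs and in V6.5 cells and 22100000 in iPSCs. At these depths 3 fragments on a 2 kb transcript give an FPKM of 0.061 to 0.068, so values below this level are at the limit of counting, and such limits cover counting error only.

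Fibroblasts are connective tissue cells that secrete and pull on a matrix of collagens and glycoproteins. They hold a mesenchymal program of transcription factors and carry the positional Hox code of the body region they came from. Mouse pluripotent stem cells grow as compact, E-cadherin-bound colonies. They are kept undifferentiated by a network around Pou5f1, Sox2, and Nanog, and cycle fast with a short G1 phase.

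MEFs were higher than both pluripotent libraries by at least 2-fold for 2395 genes (18.0% of the 13298) and lower than both by at least 2-fold for 3449 (25.9%). For 26 genes (0.196%) MEFs were at least 2-fold above one pluripotent library and at least 2-fold below the other. At a 16-fold difference from both, that is 4 on the log2 scale, 392 genes were higher and 587 lower in MEFs. The median log2 ratio of all 13298 genes was -0.28 over V6.5 cells and -0.34 over iPSCs, so MEFs were lower for the typical gene. Genes higher in MEFs made up 41.0% of those past 2-fold. The size of this excess of lower genes followed the scaling. Libraries set to the same 75th percentile gave 2695 higher and 3062 lower (46.8% higher), and those set to the same FPKM sum gave 2852 and 2869 (49.9%). Centring the ratios on their medians, which evens out the directions by construction, gave 2926 and 2768 (51.4%). Each list below is to be read against these medians and against the 18.0% and 25.9% of all genes.

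**Figure D1:**
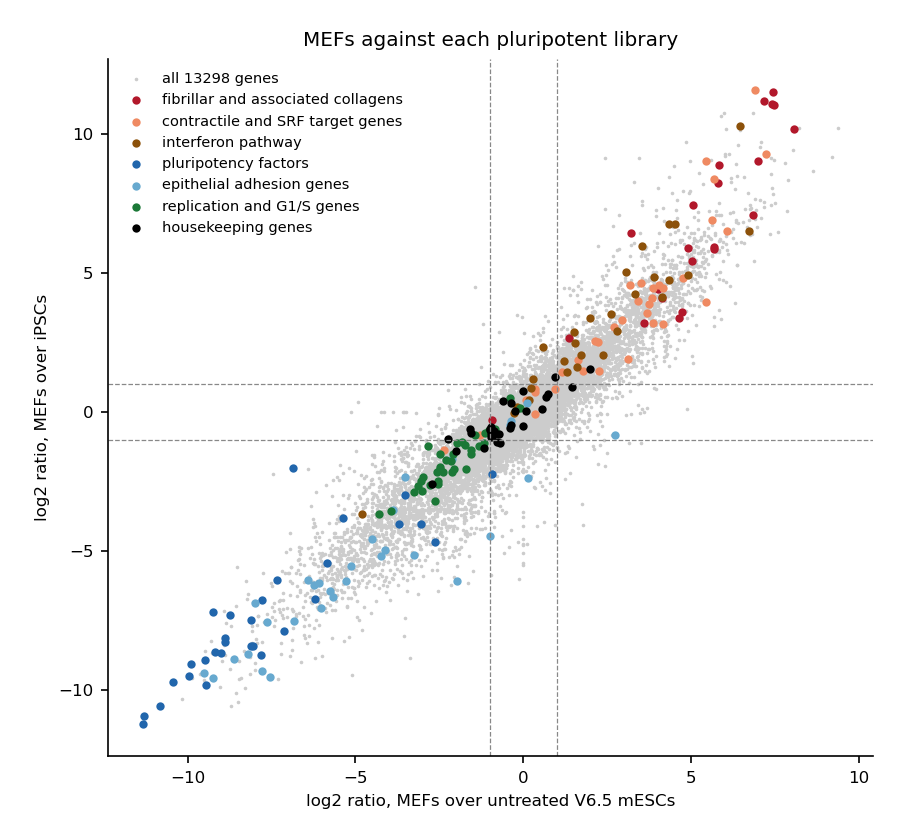
Log2 ratios of MEFs over untreated V6.5 (x axis) and over iPSCs (y axis), both on the log2(FPKM + 0.1) scale, for all 13298 genes (grey) and 7 gene lists (colours), with dashed lines at 2-fold. Both axes share the MEF library, so points lie along the diagonal by construction, with collagens at the top right, pluripotency factors at the bottom left, and housekeeping genes near the centre.

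The labels of the 3 libraries were checked against marker genes. All 15 fibroblast markers were at least 2-fold higher in MEFs than in both pluripotent libraries, with median log2 ratios of 5.45 over V6.5 cells and 8.39 over iPSCs. All 10 pluripotent markers were lower, with medians of -9.93 and -9.59. Summed over each list, the fibroblast markers held 2.54% of all FPKM in MEFs, 0.0444% in V6.5 cells, and 0.0182% in iPSCs. The pluripotent markers held 0.000725% in MEFs, 1.3% in V6.5 cells, and 1% in iPSCs.

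Untreated V6.5 cells carried low levels of many fibroblast transcripts that stood lower, or at 0, in the other V6.5 libraries. Col1a1 had an FPKM of 20.5 in untreated V6.5 cells, 1.68 in iPSCs, 1.24 in NTC, and 0.125 in shGldc. Acta2 had an FPKM of 19.3 in untreated V6.5 cells and 0.67 in iPSCs, and it was listed at 0 in NTC. Among 175 genes at an FPKM of 20 or more in MEFs and at least 16-fold higher there than in both pluripotent libraries, the median level as a percentage of that in MEFs was 2.09% in untreated V6.5 cells, 0.876% in iPSCs, 0.528% in NTC, and 0.464% in shGldc. Of these 175 genes, 1 was listed at 0 in untreated V6.5 cells, 15 in iPSCs, and 47 in NTC, while 142 were higher in untreated V6.5 cells and 110 in iPSCs than in NTC. The table with NTC listed more of all genes at 0, 9086 of 24421 in NTC against 7324 in untreated V6.5 cells and 7067 in iPSCs. The depth of NTC, estimated in the same way, was 29000000 fragments, above those of untreated V6.5 cells and iPSCs. The reason for the added zeros was not tested. A few cytokine and protease transcripts stood much higher relative to MEFs. The chemokine Ccl2 stood at an FPKM of 55.1 in MEFs against 10.2 in untreated V6.5 cells, and it was listed at 0 in iPSCs, NTC, and shGldc. The matrix protease Mmp3 had an FPKM of 5.97 in untreated V6.5 cells, above the 2.13 in MEFs, and was listed at 0 in the other 3 libraries. The part of these transcripts in the ratios was not tested. With NTC, from the separately made table, in place of untreated V6.5 cells, 2405 genes were higher and 3308 lower in MEFs.

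**Figure D2:**
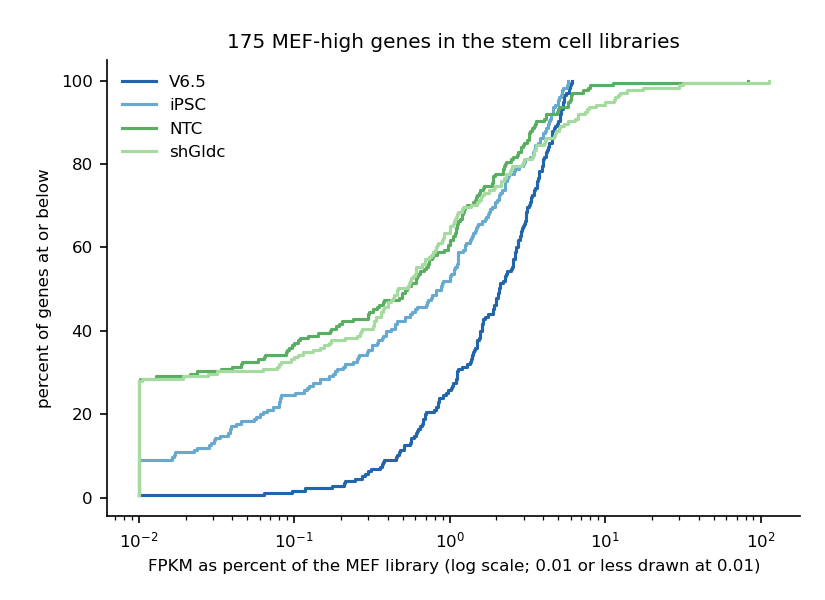
Cumulative percentage of 175 MEF-high genes (y axis) against their FPKM as a percentage of the MEF level (x axis, log scale) in the 4 pluripotent libraries. Untreated V6.5 lies to the right of the others, with a median of 2.09%, and 47 of the 175 genes are listed at 0 in NTC. The genes were chosen to lie at about 6% or less in untreated V6.5 and iPSCs, which ends those curves there.

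The matrix genes were among those with the widest differences in favour of MEFs. Of 22 fibrillar and associated collagens, 21 were higher in MEFs and none lower, with median log2 ratios of 5.37 over V6.5 cells and 6.17 over iPSCs. Their FPKM summed to 8778 in MEFs, 154.6 in V6.5 cells, and 104.6 in iPSCs. Col1a1 and Col1a2, the chains of type I collagen, had FPKM values of 3672 and 2223 in MEFs, and Col1a2 stood at 15.3 in V6.5 cells and 0.857 in iPSCs. Col1a1 lies on chromosome 11 (mm10, 94936224 to 94953042, plus strand). Col3a1, the type III chain, had an FPKM of 570.6 in MEFs, 3.21 in V6.5 cells, and 0.0965 in iPSCs. Col12a1, which binds fibril surfaces, had the widest margin of the list, with an FPKM of 169.3 in MEFs against 0.53 and 0.0476. The basement membrane chains Col4a1 and Col4a2 were not confined to MEFs, since Col4a1 had an FPKM of 288.1 in MEFs, 10.8 in V6.5 cells, and 23.9 in iPSCs. Col18a1, another basement membrane collagen, went the other way without passing 2-fold against both, at an FPKM of 37.2 in MEFs, 70.2 in V6.5 cells, and 45.3 in iPSCs.

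The enzymes that modify, fold, and cross-link collagen followed the chains but were shared more widely. Of 24 such genes, 22 were higher in MEFs and none lower, with medians of 3.34 and 2.87. Serpinh1, the collagen chaperone, was the most abundant in MEFs, at an FPKM of 833 against 67 in V6.5 cells and 113.5 in iPSCs. Lox, which cross-links collagen and elastin, stood at 347.6 in MEFs, 5.44 in V6.5 cells, and 0.105 in iPSCs. The prolyl hydroxylase subunit P4ha3 stood at 30 in MEFs against 0.426 in V6.5 cells and was listed at 0 in iPSCs. The lysyl hydroxylases Plod1 and Plod2 were the exceptions. Plod1 had an FPKM of 55.5 in MEFs, 32.4 in V6.5 cells, and 37.7 in iPSCs.

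Of 34 matrix glycoproteins and proteoglycans, 30 were higher in MEFs and 1 was lower, with medians of 4.52 and 6.37. The small proteoglycan Bgn led with an FPKM of 1777 in MEFs against 36.5 in V6.5 cells and 3.23 in iPSCs. Fn1, which encodes fibronectin, was high in all libraries, at 1255 in MEFs, 115.6 in V6.5 cells, and 73.4 in iPSCs. Ogn, another small proteoglycan, had an FPKM of 26.7 in MEFs and was under the counting limit in both pluripotent libraries. The laminin chain Lamc1 did not separate the cells, at 59.2 in MEFs, 56.4 in V6.5 cells, and 48.5 in iPSCs. Nid2, which links laminin to type IV collagen, was the lower member, at 16.5 in MEFs, 70.1 in V6.5 cells, and 35.7 in iPSCs. Its call was lost under every alternative scaling of the libraries.

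Of 26 matrix proteases and inhibitors that passed, 18 were higher in MEFs and 1 lower, with medians of 3.36 and 4.60, and 2 of the 28 genes in the list did not pass. Serpinf1 led in MEFs with an FPKM of 492.8 against 10.8 in V6.5 cells and 5 in iPSCs. Mmp14, the membrane-bound collagenase, stood at 272.9 in MEFs, 10 in V6.5 cells, and 10.9 in iPSCs. The aggrecanase Adamts5 stood at 21.7 in MEFs against 0.0824 and 0.00837. Mmp15 was lower in MEFs, at 2.18 against 12.9 in V6.5 cells and 8.23 in iPSCs. Mmp3 and Plaur, the urokinase receptor, differed in opposite directions from both pluripotent libraries, and Plaur had an FPKM of 25.3 in MEFs, 5.15 in V6.5 cells, and 57.1 in iPSCs.

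**Figure D3:**
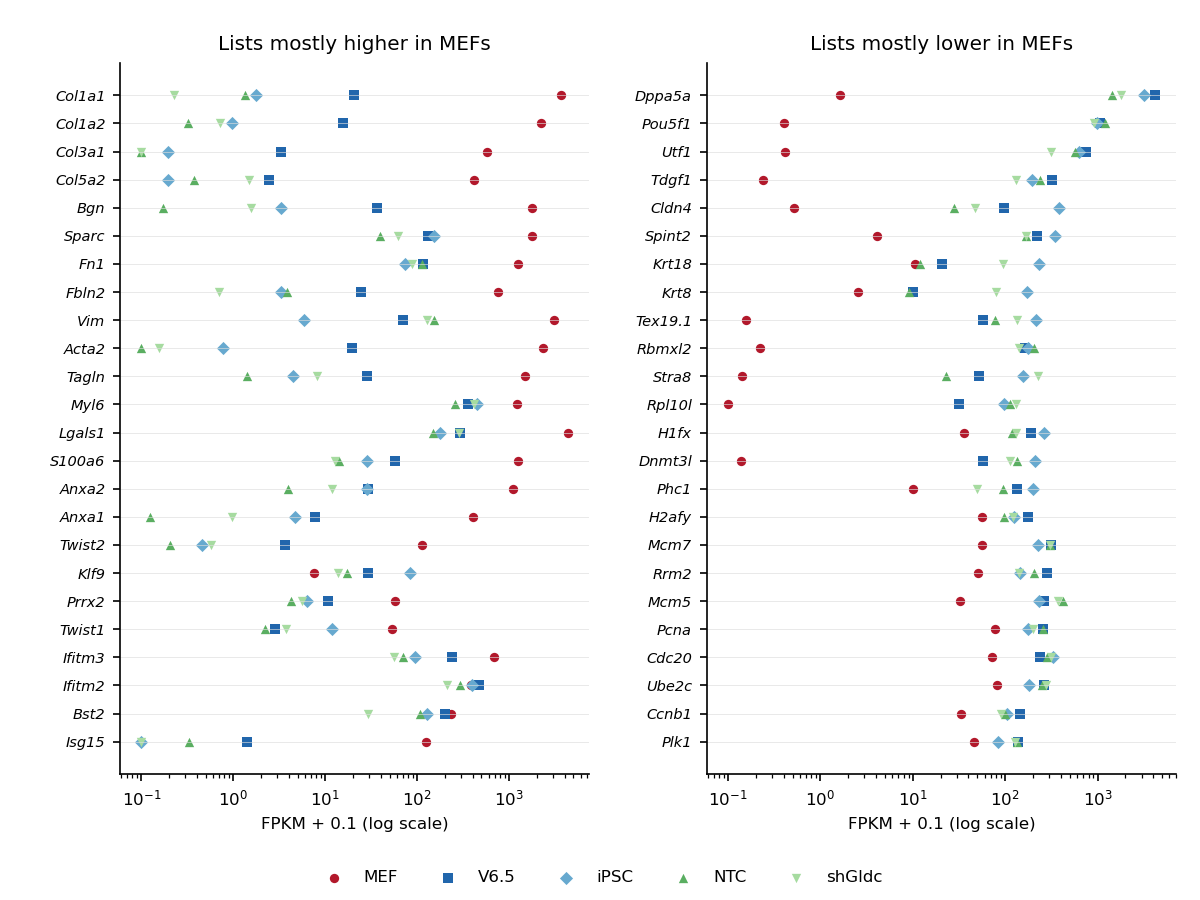
FPKM + 0.1 (x axis, log scale) in all 5 libraries for the 4 genes with the highest level of each of 12 lists (y axis), lists mostly higher in MEFs on the left and mostly lower on the right. NTC and shGldc come from a separately made table. MEF points (red circles) stand to the right of the others on the left side, except for Klf9 and Ifitm2, and to the left on the right side.

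Among the lists mostly higher in MEFs, the contractile genes held the largest share of the signal. The 35 genes of actin fibres and SRF targets together held 3.17% of all FPKM in MEFs, 0.42% in V6.5 cells, and 0.364% in iPSCs. SRF is the serum response factor, which drives many cytoskeletal genes through CArG boxes. In MEFs 28 of the 35 were higher and 1 lower, with medians of 3.42 and 3.30. Acta2, smooth muscle actin, had an FPKM of 2305 in MEFs, the widest margin of this list being that of its relative Actg2, which stood at 125.2 in MEFs, 0.733 in V6.5 cells, and 0.102 in iPSCs. Tagln stood at 1479 in MEFs, 28.7 in V6.5 cells, and 4.38 in iPSCs, although 67.9% of its exonic bases lie in other annotated genes. Vim, the mesenchymal intermediate filament, had an FPKM of 3074 in MEFs, 70.2 in V6.5 cells, and 5.79 in iPSCs, but reached 153.9 in NTC and 129 in shGldc. Actn4, a crosslinker of actin in most cells, stood at 351.7 in MEFs, 275.5 in V6.5 cells, and 367.8 in iPSCs. Csrp2 was the lower member, at 56 in MEFs, 290.2 in V6.5 cells, and 142.8 in iPSCs.

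The promoters of the contractile list held the CArG box, searched on both strands from 250 bases before to 50 after each RefSeq start (GRCm38.p6), in 5 of 31 genes with an entry. The box was in 1.81% of all 27025 genes of the promoter table and in 16.1% of these 31. Because the list was put together in part from SRF targets, a raised share was built into the choice of genes. Capitals mark the match and lower case its flanks, on the gene strand, for Cnn2 (chr10:79988519-79988578, plus strand), Myl9 (chr2:156775278-156775337, plus strand), and Myl6 (chr10:128493025-128493084, minus strand). They are shown because the 3 genes encode calponin and myosin light chains of the fibres.
Cnn2: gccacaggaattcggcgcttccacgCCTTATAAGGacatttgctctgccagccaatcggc
Myl9: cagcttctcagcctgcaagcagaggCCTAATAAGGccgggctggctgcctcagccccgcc
Myl6: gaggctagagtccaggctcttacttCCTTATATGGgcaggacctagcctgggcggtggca
The first bases of the matches lay 56, 161, and 50 bases before the start. Cnn2 had an FPKM of 747.5 in MEFs against 45.7 and 32, Myl9 of 351.8 against 6.97 and 2.87, and Myl6 of 1230 against 357.5 in V6.5 cells and 444.1 in iPSCs. A match is a description of the letters and shows no binding.

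Caveolae are membrane pits of stretch-bearing cells. Of 8 caveola genes that passed, out of 12 in the list and 9 in the table, 6 were higher in MEFs and none lower, with medians of 4.77 and 5.68. Cav1, the coat protein, stood at 103.5 in MEFs against 0.662 in V6.5 cells and was under the counting limit in iPSCs. Of 15 YAP and TEAD target genes, 10 were higher in MEFs and 2 lower, with medians of 3.18 and 2.36. Ctgf, a matricellular target, stood at 363.6 in MEFs, 31.5 in V6.5 cells, and 33.3 in iPSCs. Ajuba, a LIM protein of cell junctions, stood at 20.4 in MEFs against 56.2 and 132.3.

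The integrins, receptors for the matrix, had members in both directions. Of 17 that passed, 8 were higher in MEFs (47.1%, against 18.0% of all genes). The 5 lower ones made up 29.4%, near the 25.9% of all genes, and 4 of the 21 in the list did not pass. Itgb1, the common beta chain, had an FPKM of 324.3 in MEFs, 61.2 in V6.5 cells, and 39.3 in iPSCs. The collagen receptor chain Itga11 stood at 33.5 in MEFs against 0.527 and 0.125. The laminin receptor chains Itga3, Itga6, and Itgb4 were lower, and Itga6 stood at 5.91 in MEFs, 25.1 in V6.5 cells, and 22.5 in iPSCs. Itgb7 had the widest margin among the lower chains, at 0.238 in MEFs, 13.1 in V6.5 cells, and 20.5 in iPSCs.

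Of 25 mesenchymal surface and associated genes, 20 were higher in MEFs and 1 lower, with medians of 4.52 and 5.35. Lgals1, a secreted galectin, was the most abundant gene higher in MEFs, at an FPKM of 4362 against 291.5 in V6.5 cells and 177.2 in iPSCs. Cdh11, the mesenchymal cadherin, stood at 135.9 in MEFs against 0.914 and 0.0852. Icam1 was the lower member, at 8.28 in MEFs, 56.9 in V6.5 cells, and 69.9 in iPSCs.

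The cadherins and junction proteins of epithelia gave the reverse picture. Of 31 epithelial adhesion genes that passed, 25 were lower in MEFs and none higher, with medians of -5.28 over V6.5 cells and -6.06 over iPSCs. Cdh1, which encodes E-cadherin, had an FPKM of 0.0408 in MEFs, 101.8 in V6.5 cells, and 94.2 in iPSCs. Cldn4, a tight junction claudin, stood at 0.421 in MEFs, 97.3 in V6.5 cells, and 386.7 in iPSCs. Cldn6 was listed at 0 in MEFs, with an FPKM of 60.9 in V6.5 cells and 75 in iPSCs. The keratins of simple epithelia were less clear, since untreated V6.5 cells held little of them. Krt8 stood at 2.45 in MEFs, 9.98 in V6.5 cells, 171.4 in iPSCs, 9.09 in NTC, and 79.4 in shGldc, and Krt19 at 32.7, 4.81, and 57.9. Tjp1, a scaffold of junctions in many cell types, stood at 10 in MEFs, 13 in V6.5 cells, and 12.7 in iPSCs.

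The transcription factors of mesenchyme were low in absolute level but held the same direction. Of 44 that passed, 36 were higher in MEFs and 1 lower, with medians of 3.07 and 2.74, and 3 of the 47 in the list did not pass. Twist2 had the highest FPKM in MEFs, 113.9 against 3.55 in V6.5 cells and 0.362 in iPSCs. Osr1, a factor of embryonic connective tissue, had an FPKM of 23.2 in MEFs and was under the counting limit in both pluripotent libraries. Prrx1, a factor of limb and body wall mesenchyme, stood at 35.6 in MEFs against 0.394 and 0.00607. Snai2 stood at 27.1 in MEFs against 0.168 and 0.191. The Kruppel-like factor Klf9 was the lower member, at 7.43 in MEFs, 29.4 in V6.5 cells, and 83.2 in iPSCs.

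Of 33 Hox genes that passed, out of 39, 26 were higher in MEFs and 2 lower, with medians of 2.98 and 2.15. Summed over all 39, their FPKM was 181.1 in MEFs, 26.6 in V6.5 cells, 42 in iPSCs, and 23.3 in NTC. In shGldc the sum was 157.2, so the V6.5 libraries differed among themselves. Hoxb9 had the highest FPKM in MEFs, 21.1, against 0.991 in V6.5 cells, 3.14 in iPSCs, and 8.23 in shGldc. Hoxc8 stood at 11 in MEFs against 0.179 and 0.0428, and Hoxc10 at 13.9 against 0.19 and 0.54. Hoxb13, from the end of its cluster, was lower, at 0.365 in MEFs, 5.6 in V6.5 cells, and 5.18 in iPSCs.

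Of 19 AP-1 and immediate early factors, 11 were higher in MEFs and 1 lower, with medians of 2.62 and 1.29. Junb had an FPKM of 93.4 in MEFs, 24.6 in V6.5 cells, and 29.9 in iPSCs. Fosl2 stood at 20.9 in MEFs against 0.691 and 1.39. Ier2 was lower, at 51.6 in MEFs, 210.3 in V6.5 cells, and 155.8 in iPSCs. Jund had an FPKM of 141.7 in MEFs, 1.84 in V6.5 cells, and 0.364 in iPSCs, but 117.7 in NTC and 159.9 in shGldc, so its call does not hold against NTC. For Jund, 52.6% of the exonic bases lie in another annotated gene.

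The pluripotency network had wide differences in favour of both pluripotent lines. Of 30 pluripotency factors, 29 were lower in MEFs by at least 2-fold and none higher, with medians of -8.12 over V6.5 cells and -8.00 over iPSCs. Pou5f1, the POU factor at the core of the network, had the widest margin of all genes, with an FPKM of 0.309 in MEFs, 1055 in V6.5 cells, 974.9 in iPSCs, 1215 in NTC, and 914.9 in shGldc. It lies on chromosome 17 (mm10, 35506018 to 35510772, plus strand). Nanog stood at 0.163 in MEFs, 263.2 in V6.5 cells, and 190.3 in iPSCs, and Sox2 at 0.643, 196.7, and 250.8. Dppa5a was the most abundant, at 1.55 in MEFs, 4146 in V6.5 cells, and 3162 in iPSCs, though 57.2% of its 31-nt stretches also occur in transcripts of other genes. Dppa2, Dppa3, Lin28a, Prdm14, and Nr5a2 were listed at 0 in MEFs.

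Some members varied among the pluripotent libraries. Otx2, a factor of formative and primed cells, was listed at 0 in MEFs and had an FPKM of 11.5 in untreated V6.5 cells, 0.304 in iPSCs, 0.592 in NTC, and 0.549 in shGldc, so untreated V6.5 cells stood apart from the other V6.5 libraries as well. Klf5, a factor of the naive state, stood at 5.66 in MEFs, 35.8 in V6.5 cells, 146.5 in iPSCs, 96 in NTC, and 60.6 in shGldc. Klf4 did not pass 2-fold against V6.5 cells, at 22.2 in MEFs, 42.2 in V6.5 cells, and 104.7 in iPSCs. Klf2 stood at 16.1 in MEFs, 186.7 in V6.5 cells, and 128.4 in iPSCs. Klf4 and Klf2 had the highest levels in MEFs of the 30 factors.

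Of 26 germline genes that passed, out of 28, 25 were lower in MEFs and none higher, with medians of -4.34 and -5.71. These are genes of germ cells that methylation of their promoters keeps silent in body cells. Their FPKM summed to 3.23 in MEFs, 408.9 in V6.5 cells, and 862.6 in iPSCs. Rbmxl2 had an FPKM of 0.123 in MEFs, 162.9 in V6.5 cells, and 174.5 in iPSCs. Tex19.1 stood at 0.0585 in MEFs, 57.2 in V6.5 cells, and 215.5 in iPSCs. Mael, Dazl, and 10 others of the 26 were listed at 0 in MEFs, and these could pass the filter only through a pluripotent library. Tdrkh was the exception, at 1.19 in MEFs, 2.49 in V6.5 cells, and 1.91 in iPSCs.

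Promoters of the germline list often held CACGTG, an E-box with a CpG at its centre. Searched on both strands in the same window, it was in 12 of 25 genes (48%), against 8.09% of all 27025 genes of the table. Capitals mark the match on the gene strand for Mael (chr1:166238937-166238992, minus strand), Taf7l (chrX:134476509-134476564, minus strand), and Slc25a31 (chr3:40708753-40708808, plus strand), shown as members with 1 match each.
Mael: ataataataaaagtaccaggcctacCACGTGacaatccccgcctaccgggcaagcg
Taf7l: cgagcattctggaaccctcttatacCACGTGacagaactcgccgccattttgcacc
Slc25a31: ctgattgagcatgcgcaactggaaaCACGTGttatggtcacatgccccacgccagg
Mael was listed at 0 in MEFs, with an FPKM of 7.39 in V6.5 cells and 21.7 in iPSCs. Taf7l stood at 0.021 in MEFs, 1.31 in V6.5 cells, and 32 in iPSCs, and Slc25a31 at 0.162, 1.45, and 4.67. All 3 were higher in iPSCs than in V6.5 cells.

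Of 32 chromatin and DNA methylation factors, 19 were lower in MEFs and 4 higher, with medians of -1.83 and -1.54. Dnmt3l, the cofactor of de novo DNA methylation, had the widest margin, at an FPKM of 0.0375 in MEFs, 57.1 in V6.5 cells, and 210.1 in iPSCs. The Polycomb subunits Ezh2, Eed, Suz12, and Jarid2 were lower, and Jarid2 stood at 1.84 in MEFs, 41.7 in V6.5 cells, and 82.9 in iPSCs. The 4 higher genes were Lmna, Hmga2, Cbx6, and Tet3, of which Tet3 was not 2-fold higher than in NTC. Lmna, which encodes the lamins A and C, had an FPKM of 391.1 in MEFs, 26.6 in V6.5 cells, and 39.4 in iPSCs, while Lmnb1 stood at 39.2, 147.6, and 136.5. Hmga2 stood at 78.8 in MEFs, 2.43 in V6.5 cells, and 2.39 in iPSCs.

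The cell cycle genes were lower in MEFs but by far less than the pluripotency factors. Of 36 replication and G1/S genes, 30 were lower and none higher, with medians of -2.24 over V6.5 cells and -1.87 over iPSCs. Mcm5, a subunit of the replicative helicase, had an FPKM of 32.7 in MEFs, 266.2 in V6.5 cells, and 234.2 in iPSCs. Msh6, a mismatch repair factor, had the widest margin, at 10.2 in MEFs, 204.7 in V6.5 cells, and 130.4 in iPSCs. Ccne1, a G1 cyclin, stood at 25.2, 179.7, and 59.1. Rrm1 and Ccne2 did not pass 2-fold, and Ccne2 stood at 1.5 in MEFs, 1.6 in V6.5 cells, and 1.34 in iPSCs.

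Of 24 mitosis genes, 17 were lower and none higher, with medians of -1.57 and -1.40. Cdc20, the activator of the anaphase-promoting complex, had an FPKM of 71.2 in MEFs, 240.8 in V6.5 cells, and 332.9 in iPSCs. Mki67 did not separate the cells, at 7.96, 9.83, and 7.55. In promoters of this list TTTGAA, the core of the cell cycle homology element, was in 15 of 20 genes (75%), against 20.2% of all genes of the table. Capitals mark it on the gene strand for Mki67 (chr7:135716447-135716520, minus strand) and Prc1 (chr7:80294421-80294475, plus strand), of which the second was lower in MEFs than in V6.5 cells and iPSCs but not by 2-fold than in NTC.
Mki67: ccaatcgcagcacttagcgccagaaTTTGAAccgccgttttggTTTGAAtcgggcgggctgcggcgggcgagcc
Prc1: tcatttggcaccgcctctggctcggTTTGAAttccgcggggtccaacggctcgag
Prc1 had an FPKM of 20.3 in MEFs, 59.9 in V6.5 cells, 46.8 in iPSCs, and 27.5 in NTC. CACGTG was in 1 of the 20 promoters of this list and in none of the 31 of the contractile list.

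Cdk inhibitors, D cyclins, and p53 targets were mixed. Of 30 genes, 10 were higher and 4 lower in MEFs, with medians of 0.56 and 0.16. Ccnd2 had the widest margin, at an FPKM of 96.5 in MEFs, 1.57 in V6.5 cells, and 1.2 in iPSCs. The Ink4 inhibitor Cdkn2b stood at 94.4 in MEFs, 5.11 in V6.5 cells, and 5 in iPSCs, and Cdkn2a at 71.3, 30.6, and 35. Cdkn1a, which encodes p21, did not pass against iPSCs, at 258.3, 46.6, and 147.3. Trp53 was lower, at 104.7 in MEFs, 289.5 in V6.5 cells, and 259.5 in iPSCs.

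Among growth factor receptors, 20 of 33 were higher in MEFs and 4 lower, with medians of 1.60 and 1.83. Pdgfrb, a receptor for PDGF, had an FPKM of 104.3 in MEFs, 2.42 in V6.5 cells, and 1.89 in iPSCs. Osmr, the oncostatin M receptor, stood at 17.3 in MEFs against 0.316 and 0.0981. Kit, Erbb3, Fgfr3, and Fgfr4 were the lower receptors, Fgfr3 not by 2-fold against NTC, and Kit stood at 0.125 in MEFs, 23.3 in V6.5 cells, and 11.5 in iPSCs. Lifr, the LIF receptor, did not separate the cells, at 1.41, 2.15, and 1.72.

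The IGF axis was mostly higher in MEFs, at 11 of 16 genes that passed, with 2 lower and medians of 3.20 and 3.46. The growth factor Igf2 had an FPKM of 759.1 in MEFs, 3.87 in V6.5 cells, and 8.58 in iPSCs, although 64.5% of its exonic bases lie in other annotated genes. H19, the noncoding RNA beside it, stood at 2451 in MEFs, 47.7 in V6.5 cells, 291.6 in iPSCs, 8.42 in NTC, and 518.5 in shGldc, so the V6.5 libraries differed widely among themselves. The protease Pappa, which cleaves IGF-binding proteins, stood at 11.4 in MEFs and 0.0421 in V6.5 cells and was listed at 0 in iPSCs. Igfbp2 was lower, at 24.2 in MEFs, 752.1 in V6.5 cells, and 260.4 in iPSCs. Igf2bp1, an RNA-binding protein, was the other lower member, at 8.54, 47.2, and 43.2. Of 30 imprinted genes that passed, out of 39, 14 were higher and 4 lower, with medians of 1.07 and 1.21. Phlda2 stood at 0.248 in MEFs, 104.8 in V6.5 cells, and 36.3 in iPSCs, and Grb10 at 169.8, 15.7, and 27.5.

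Of 30 TGF-beta and BMP ligands and modulators, 16 were higher in MEFs and 5 lower, with medians of 1.63 and 1.38. Tgfb3 had an FPKM of 73.1 in MEFs, 0.831 in V6.5 cells, and 0.186 in iPSCs. Inhba, the activin subunit, stood at 29.1 in MEFs and 0.611 in V6.5 cells and was listed at 0 in iPSCs. Nodal, the ligand of the early embryo, was listed at 0 in MEFs, with an FPKM of 52 in V6.5 cells and 93 in iPSCs. Bmp4 did not pass 2-fold, at 14.7, 10.7, and 14. Lefty1, a Nodal antagonist, was at 1.16 in MEFs, 37.8 in V6.5 cells, 0.888 in iPSCs, 3.54 in NTC, and 34.3 in shGldc.

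Of 20 Wnt ligands and antagonists that passed, out of 23, 9 were higher and 5 lower in MEFs, with medians of 1.09 and 1.38. Wnt5a stood at 19.8 in MEFs against 0.241 and 0.175. Lgr5, a receptor for R-spondins, had an FPKM of 3.57 in MEFs and was under the counting limit in both pluripotent libraries. Wnt7b stood at 0.17 in MEFs, 3.79 in V6.5 cells, and 15.3 in iPSCs, but at 0.375 in NTC and 0.683 in shGldc, so it was not 2-fold lower in MEFs than in NTC.

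Of 34 chemokines, cytokines, and growth factors that passed, out of 42, 24 were higher in MEFs and 3 lower, with medians of 2.32 and 2.96. Ptn, which encodes pleiotrophin, had an FPKM of 205.2 in MEFs, 0.585 in V6.5 cells, and 0.0765 in iPSCs. Its relative Mdk, which encodes midkine, went the other way, at 39.4, 225.5, and 127.3. Cxcl12 stood at 47.7 in MEFs against 0.404 and 0.0379. Fgf4 stood at 0.1 in MEFs, 101.8 in V6.5 cells, and 81.2 in iPSCs. Mif was the highest of the list and did not pass, at 820.6, 1472, and 749.3. Of 12 prostaglandin enzymes and receptors that passed, out of 15, 6 were higher and 2 lower, with medians of 1.34 and 1.79. Ptgs2, the inducible cyclooxygenase, stood at 8.85 in MEFs, 1.16 in V6.5 cells, and 0.307 in iPSCs, and Ptges3 at 53.4, 141.2, and 107.4, with 102.6 in NTC, just short of 2-fold.

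The interferon pathway was higher in MEFs. Interferon-stimulated genes are switched on through promoter repeats of GAAA, and pluripotent cells are known to answer interferon weakly. Of 28 genes that passed, out of 30, 21 were higher and 1 lower, with medians of 2.17 and 2.88. Isg15, a ubiquitin-like modifier, stood at 123.3 in MEFs against 1.3 in V6.5 cells and was listed at 0 in iPSCs. Ifit1, which binds foreign RNA caps, stood at 10.5 in MEFs and 0.0172 in iPSCs and was listed at 0 in V6.5 cells. The receptor chains Ifnar1 and Ifnar2 differed less, and Ifnar1 stood at 11.1, 4.41, and 4.08, with 5.73 in NTC, just short of 2-fold. Irf3 did not separate the cells, at 19.4, 22.2, and 17.1. Ifitm1 was the lower member, at 1.98 in MEFs, 58 in V6.5 cells, and 26.5 in iPSCs, while Ifitm3 stood at 686.5, 240.7, and 94.8.

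Promoters of the interferon list held GAAANNGAAA, searched on both strands in the same window, in 13 of 24 genes with an entry (54.2%), against 3.99% of all 27025 genes of the table. Because the list was put together in part from interferon-stimulated genes, a raised share was built into the choice of genes. Capitals mark all matches before the start, on the gene strand, for Isg15 (chr4:156200850-156200921, minus strand), Ifit1 (chr19:34640760-34640838, plus strand), and Rsad2 (chr12:26456538-26456597, minus strand). They are shown because these genes are induced strongly by interferon in most cells, and Rsad2 stood at 1.29 in MEFs against 0.255 in V6.5 cells and 0.0345 in iPSCs. Isg15 has 3 overlapping matches, and in Ifit1 and Rsad2 the matches read in the opposite direction.
Isg15: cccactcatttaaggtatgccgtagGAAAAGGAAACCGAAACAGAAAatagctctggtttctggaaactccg
Ifit1: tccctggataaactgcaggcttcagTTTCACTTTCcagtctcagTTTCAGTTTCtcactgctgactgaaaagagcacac
Rsad2: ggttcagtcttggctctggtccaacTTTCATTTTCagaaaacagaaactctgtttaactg
Among genes with a match, Ifitm2 and Bst2 did not pass 2-fold, so a match did not go with a difference in every case, and 55.5% of the 31-nt stretches of Ifitm2 also occur in transcripts of other genes. Bst2 had an FPKM of 233.8 in MEFs, 200.9 in V6.5 cells, and 127.6 in iPSCs.

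Of 17 MHC class I and antigen processing genes that passed, out of 18, 8 were higher in MEFs and 1 lower, with medians of 1.15 and 1.52. B2m, the light chain, had an FPKM of 458.7 in MEFs, 34.3 in V6.5 cells, and 25.8 in iPSCs. H2-K1, a heavy chain, did not separate the cells, at 38.1, 38.8, and 37.5. H2-Q4 was lower, at 0.728, 3.71, and 9.11. Of 32 lysosomal genes, 13 were higher and none lower, with medians of 1.37 and 0.76. Cd63 stood at 1068 in MEFs, 157.9 in V6.5 cells, and 282.1 in iPSCs. Glb1, the beta-galactosidase, did not pass, at 32.9, 39.7, and 52.3.

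**Figure D4:**
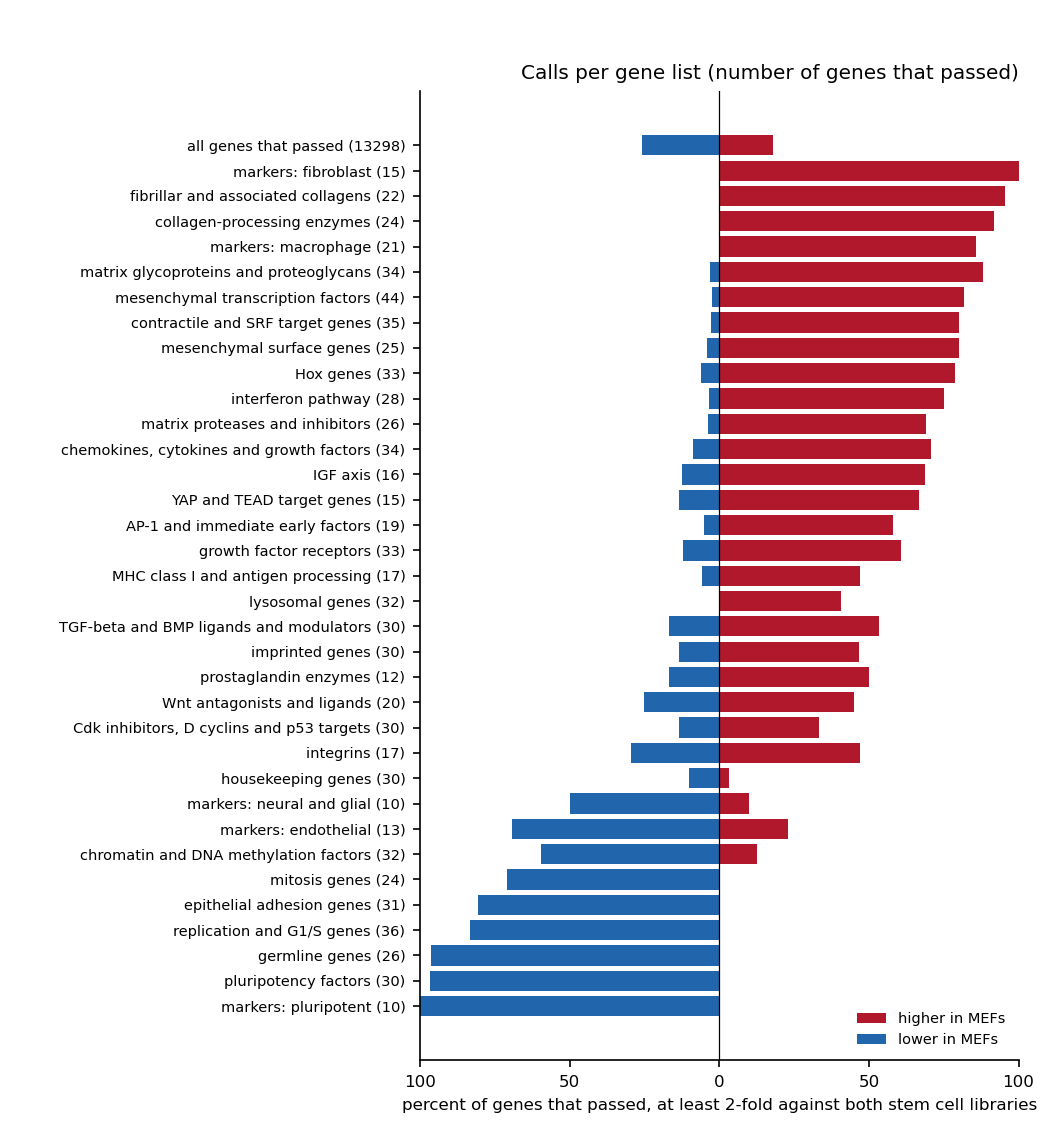
Percentage of the genes that passed in each list with at least 10 such genes (y axis, number in brackets) that were at least 2-fold higher (red, to the right) or lower (blue, to the left) in MEFs than in both pluripotent libraries, with all genes at the top (18.0% higher, 25.9% lower). The lists overlap, and fibroblast and pluripotent markers serve as a check of the labels.

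Markers of other cell types were followed because primary fibroblast cultures are mixtures. In bulk RNA, fewer cells of a type and less RNA per cell cannot be told apart. Of 21 macrophage markers that passed, out of 24, 18 were higher in MEFs and none lower, with medians of 5.21 over both pluripotent libraries, and their sum made up 0.09% of all FPKM in MEFs. Lyz2, a lysozyme, led with an FPKM of 141.7 in MEFs, 1.59 in V6.5 cells, and 0.0856 in iPSCs. C1qc, a chain of complement C1q, stood at 39.8 in MEFs and was listed at 0 in all 4 pluripotent libraries, and so was the adaptor Tyrobp, at 17.9 in MEFs. Csf1r, the macrophage growth factor receptor, stood at 11.1 in MEFs, 0.0418 in V6.5 cells, and 0.634 in iPSCs, while Ptprc did not pass. The sum of the whole macrophage list ran from 37.3 to 171.5 in the pluripotent libraries. Laptm5, at an FPKM of 18 in MEFs, 24 in V6.5 cells, and 144.6 in iPSCs, went against the list. Cd68 did not pass against iPSCs, at 18.7 in MEFs, 9.04 in V6.5 cells, and 19.9 in iPSCs. The macrophage markers Ctss and Cd68 are also in the lysosomal list. Whether macrophages were present, and what part they would have in the MEF values of the interferon, cytokine, and lysosomal lists, was not tested.

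Of the other marker lists, that of adipocytes was also mostly higher in MEFs and the rest were not. Of 13 endothelial markers that passed, out of 15, 9 were lower and 3 higher in MEFs. Pecam1 and Cldn5 were listed at 0 in MEFs, where Emcn had an FPKM of 9.96. Of 15 skeletal muscle markers 4 passed, with 1 higher and 1 lower, and Acta1 stood at 26.1 in MEFs. Of 15 neural and glial markers 10 passed, with 1 higher and 5 lower. Of 10 keratinocyte markers 3 passed, with none higher and 1 lower. Of 14 erythroid markers 3 passed, all lower, with Gata1 and Hba-a2 listed at 0 in MEFs, although 92.6% of the 31-nt stretches of Hba-a2 also occur in transcripts of other genes. Genes listed at 0 in MEFs, such as Gata1, Hba-a2, Pecam1, and Cldn5, could pass only through a pluripotent library. Their direction was therefore fixed by the filter and says nothing about these cell types. Of 15 cartilage and bone markers 7 passed, with 1 higher and 3 lower. Of 12 adipocyte markers 8 passed, with 5 higher and none lower, and Pparg stood at 1.28 in MEFs. The sums of these lists in MEFs ran from 0.000146% of all FPKM for erythroid to 0.0514% for adipocyte markers. Of 6 sex-linked genes 4 passed, with Xist higher in MEFs, at 3.6 against 0.0906 and 0.0426, beside the Y-linked Ddx3y at 3.84, 1.02, and 5.06.

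Most housekeeping genes passed 2-fold in neither direction. Of 30, 1 was higher and 3 lower in MEFs, with medians of -0.71 over V6.5 cells and -0.59 over iPSCs, below the -0.28 and -0.34 of all genes. Ywhaz stood at 106.4 in MEFs, 100.6 in V6.5 cells, and 102.7 in iPSCs. Gapdh, Ubb, and Eif4a2 were the lower genes, and Reep5 the higher one, at 61, 15.2, and 21. Eif4a2 stood at 26.2 in MEFs, 174.1 in V6.5 cells, and 157.3 in iPSCs. Gapdh and Ubb were not 2-fold lower than in NTC. Of the 31-nt stretches of Ubb, 50.3% also occur in transcripts of other genes.

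Outside the lists, a few genes with wide margins remained. Lrrc17, a secreted leucine-rich repeat protein, had the widest margin of all genes higher in MEFs, with an FPKM of 116.2 in MEFs and 0.0742 in V6.5 cells, and it was listed at 0 in iPSCs, NTC, and shGldc. Mir686 came next at 136.6 in MEFs, 0.132 in V6.5 cells, and 0.138 in iPSCs, but all of its exonic bases lie within Psmb5, so this value cannot be given to the microRNA. Aspn, a small proteoglycan of connective tissue, stood at 48.8 in MEFs and 0.121 in V6.5 cells and was listed at 0 in iPSCs. Among genes lower in MEFs, Tcf15 stood at 0.0996 in MEFs, 231.4 in V6.5 cells, and 256.1 in iPSCs, though 75.9 in NTC and 22 in shGldc. The AP-2 factor Tfap2c stood at 0.0256 in MEFs, 63 in V6.5 cells, and 62.4 in iPSCs. Actg1 and Tmsb4x were among the 15 most abundant genes higher in MEFs but were high in all libraries, with Actg1 at 2897, 1280, and 1205 and, short of 2-fold, at 1597 in NTC.

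By position, chromosome 8 stood apart from the other 19 chromosomes compared. Over its 562 genes whose FPKM was 1 or more in all 3 of MEFs, V6.5 cells, and iPSCs, the median log2 ratio of MEFs was -0.66 over V6.5 cells and -0.30 over iPSCs. On the other chromosomes these medians ran from -0.44 to 0.17 over V6.5 cells and from -0.51 to 0.14 over iPSCs. The median of untreated V6.5 cells over iPSCs was 0.36 for chromosome 8 and between -0.20 and 0.05 for the others. With NTC in place of untreated V6.5 cells, the median of MEFs was -0.73 for chromosome 8. Of the 725 chromosome 8 genes that passed, 11.3% were higher in MEFs, against 13.1% to 26.2% on the others, and 31% were lower, which lay within the 19% to 31.5% of the others. Over iPSCs the lowest median was that of chromosome 11, at -0.51, and chromosome 17 was low against both, at -0.44 and -0.48. The X chromosome had the highest medians, 0.17 and 0.14. No cause was tested.

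**Figure D5:**
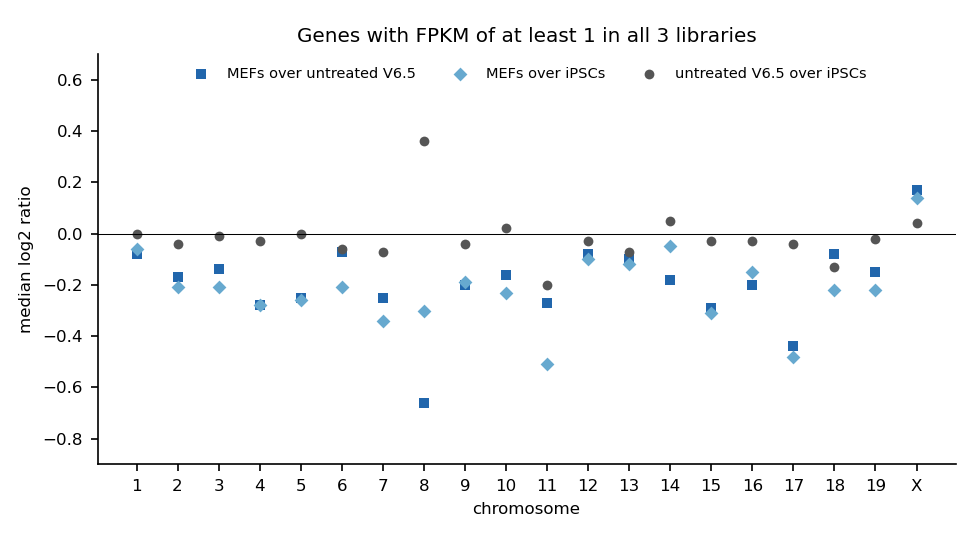
Median log2 ratio (y axis) by chromosome (x axis) over genes whose FPKM was 1 or more in all 3 of MEFs, untreated V6.5, and iPSCs. For chromosome 8 the median of MEFs over untreated V6.5 is -0.66 and that of untreated V6.5 over iPSCs is 0.36, both outside the range of the other chromosomes.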

How the data were processed

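The authors extracted total RNA with TRIzol, made NEBNext Ultra libraries, and sequenced them on an Illumina HiSeq instrument. Per the labels' processing notes they used TopHat2 2.1.0, StringTie 1.3.4d, and SAMtools 1.7, and the notes list both mm9 and mm10. The authors deposited Ballgown FPKM values per gene symbol in 2 separately made tables of 24421 genes, and mm10 is the build the methods name. Gene annotation and strand setting are not given in the sources used here.

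From these FPKM values, log2(FPKM + 0.1) differences of MEFs from V6.5 cells and from iPSCs were computed, for genes that reached an FPKM of 1 in any of these 3 libraries. A gene was called higher or lower at 2-fold or more against both. The scale understates differences of genes with low values. A gene listed at 0 in MEFs could pass only through a pluripotent library, and the reverse, so the filter fixed its direction. Each condition was 1 library, so nothing was tested. Depth was estimated from whole multiples of the smallest step in FPKM times length, over 5723 genes with 1 annotated transcript.

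The genes and the 41 hand-written lists were chosen with earlier results of these data known. Genes are named from the lists (highest, widest and narrowest margin, and against the list), from the 15 widest margins in each direction, the 15 most abundant in MEFs among those higher there, and the 5 in each direction that differed most in opposite directions. A few others that make a family or a missing difference plain were chosen after their values were seen. GENCODE M21 gave places, overlaps, and shared 31-nt stretches, and a share of 50% or more is stated where the gene is described or is given in the closing section. Promoters from RefSeq (GRCm38.p6) matched 78.4% of the genes that passed, 75% of the higher, and 76.3% of the lower ones. These are under the 80% needed, so a check of promoters over all higher or lower genes is void and its 4-fold alternative was not run. The lists searched for motifs had entries for at least 80%. Alternatives were other pseudocounts, filters, scalings, fold thresholds, and NTC in place of untreated V6.5 cells. Python 3.11.15, numpy, pandas, and matplotlib were used. Results on a few items are not reported here.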

Additional observations from a re-analysis of the deposited data

Results flagged for a closer look

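For 26 genes MEFs were at least 2-fold above one pluripotent library and at least 2-fold below the other, and the 5 with the widest differences in each direction are given. With 1 library each, the difference between both contrasts was not tested. Above V6.5 cells and below iPSCs, the log2 ratios of MEFs over V6.5 cells and over iPSCs were 2.44 and -1.93 for Gm21992, 2.23 and -1.85 for Mir1938, 1.78 and -4.05 for Xlr3b, 1.76 and -3.30 for Gm13889, and 1.59 and -1.61 for B930041F14Rik. Xlr3b, a gene of an X-linked family, had an FPKM of 0.50 in MEFs, 0.0745 in untreated V6.5 cells, and 9.82 in iPSCs, but 9.81 in NTC and 10.7 in shGldc, so untreated V6.5 cells stood apart from the other V6.5 libraries. Gm13889 gave the same picture, at 0.345, 0.0313, 4.28, 4.88, and 3.81. Most of the sequence of Xlr3b (68.8% of its 31-nt stretches) occurs in transcripts of other genes, and 69.8% of the exonic bases of Gm21992 and 54.0% of those of Mir1938 lie in other annotated genes.

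Below V6.5 cells and above iPSCs, the ratios were -1.44 and 4.48 for Mmp3, -1.26 and 1.62 for Gstm7, -1.19 and 3.15 for Cxcl1, -1.06 and 1.12 for Aass, and -1.31 and 1.02 for Lef1. The chemokine Cxcl1 had an FPKM of 1.64 in MEFs, 3.86 in untreated V6.5 cells, and 0.0954 in iPSCs and was listed at 0 in NTC and shGldc, as was Mmp3. The Wnt effector Lef1 stood at 0.408 in MEFs, 1.16 in untreated V6.5 cells, 0.151 in iPSCs, 1.11 in NTC, and 5.01 in shGldc.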

How the results depend on the processing

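The genes higher in MEFs numbered between 1645 and 2991 under every alternative at 2-fold, and 1251 at 4-fold. Those lower numbered 2264 with an FPKM of at least 5 and 1789 at 4-fold, where fewer genes could pass by construction, and between 2554 and 4242 otherwise. The 26 genes in opposite directions became 7 with a pseudocount of 1, 41 without the filter, 13 with an FPKM of at least 5, 61 with NTC in place of untreated V6.5 cells, and 0 at 4-fold, the cause of the NTC count not being tested. Over NTC the log2 ratio turned to 4.48 for Mmp3 and 4.12 for Cxcl1, both listed at 0 there, and to -4.05 for Xlr3b, -3.48 for Gm13889, and -0.56 for Gm21992. Of the named genes called higher or lower, Actg1, Ifnar1, Jund, Tet3, Fgfr3, Gapdh, Prc1, Ptges3, Ubb, and Wnt7b did not keep 2-fold over NTC, at 0.86, 0.95, 0.27, 0.80, -0.56, -0.34, -0.44, -0.94, -0.91, and -0.81. Calls lost under the other alternatives are not listed, though some near 2-fold, such as that of Nid2, were lost under the scalings. The median of the skeletal muscle markers turned to 0.67 over V6.5 cells and 0.22 over iPSCs with an FPKM of at least 5, and that of the cartilage and bone markers to 0.13 over iPSCs without the filter, both on few genes. No other list median past 2-fold and no other named gene past 2-fold changed sign. List counts moved by over 1.5 times in 42 of 654 cases. List medians moved in 109 further cases of 654 and ratios of named genes in 375 of 3002. Among these, differences under 2-fold over V6.5 cells turned over NTC to 1.72 for the keratinocyte markers, -1.22 for Bmp4, 0.98 for Ccne2, 0.39 for Ifitm2, and 0.49 for Mki67. With a pseudocount of 1 the median of the pluripotency factors shrank to -5.49 over V6.5 cells and -4.85 over iPSCs, that of the germline genes to -2.28 and -3.41, and that of the macrophage markers to 2.55 over both. Over NTC the median rose to 6.37 for matrix glycoproteins, 4.62 for matrix proteases, 5.69 for mesenchymal surface genes, 3.56 for chemokines and cytokines, 4.13 for Hox genes, and 3.34 for the interferon pathway, and that of epithelial adhesion genes shrank to -4.49. The medians of the fibrillar collagens, mesenchymal transcription factors, and fibroblast markers rose over NTC as well, to 6.33, 3.69, and 7.47. A ratio was taken as moved beyond 0.61, which is the robust SD, over genes, of the log2 difference between NTC and untreated V6.5 cells. No paired analysis was possible because no result comes from a test and each condition was 1 library. Depth limits genes under an FPKM of about 0.061 on 2 kb, whose ratios follow the pseudocount.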
